A study of Drosophila melanogaster with 33 samples.

Results

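The 10 genes *Mhc*, *Mlc1*, *Mlc2*, *up*, *wupA*, *Tm1*, *Tm2*, *sls*, *Act57B* and *Prm* encode the main contractile proteins of fly muscle. They were taken by name, and all 10 were found among the 18277 genes annotated with a transcription start site (TSS) on the 7 arms of the *Drosophila melanogaster* genome. Binding of Lola-I, a BTB zinc-finger protein made from the gene *lola*, was measured by ChIP-seq, an assay that sequences the chromatin an antibody pulls down. The 2 libraries used come from wild-type OregonR embryos aged 14 to 17 h, pulled down with a custom rabbit polyclonal antibody against Lola-I. The labels name no transgene or mutation for them. The series holds 33 samples in 12 groups, and the 31 others (Rpb3, GAF and WCE libraries of OregonR, Lola-I mutant ORC4 and Lola-I rescue embryos) were not analysed here. The chromatin is of whole embryos, so binding in few cells and weak binding in many cells cannot be told apart.

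Each library has its own peak list, with 1759 peaks in replicate 1 and 9674 in replicate 2. A summit is the base of highest signal in a peak, rank 1 is the highest score within a list, and fold enrichment and −log10 p-value are the authors' own values per peak. What the enrichment is relative to is not given in the sources used here. Because the lists differ in length, ranks and fold enrichments are read within a list and not between them. The lists hold no read counts, so the depth and the error of a single peak are unknown. Nothing in the labels says whether the replicates are separate embryo collections. For each gene the summits within 200 bp of a TSS (promoter summits) were taken, as were those in an intron, in no exon of the gene and more than 200 bp from its TSSs (intron summits). Distances run in the direction of the gene, and negative values lie upstream.

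Muscle contracts when thick filaments of myosin pull on thin filaments of actin within the sarcomere. Troponin and tropomyosin on the thin filament hold the myosin off until calcium is released, paramyosin lies in the core of insect thick filaments, and titin-like proteins link the thick filament to the Z-disc. In the fly embryo the contractile genes are switched on together as the myotubes differentiate, under Mef2, a MADS-box activator. Many of them make several proteins from 1 gene through alternative exons and alternative start sites.

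Promoter or intron summits were found in both lists at 2 of these genes, at the promoter of *Mhc* and within an intron of *Prm*. A shared peak in the last exon of *Mlc1* falls in neither class and is described with that gene. Over the genome 4.32% of all genes had a promoter summit and 2.46% of genes with introns an intron summit in both lists. The sequences at the *Mhc* and *Prm* sites are shown first because both carry the same 8 bases, AAAGCTTT, which are set in capitals. They are RefSeq sequence of the dm6 build (Release 6), read 5′ to 3′ on the strand of the gene. The *Mhc* stretch is chr2L:16766650-16766679 on the plus strand, and the *Prm* stretch is chr3L:8741306-8741506 on the minus strand, centred on the replicate 1 summit.
Mhc promoter site: cgtcgaatcgaAAAGCTTTcggggtcttac
Prm intron summit: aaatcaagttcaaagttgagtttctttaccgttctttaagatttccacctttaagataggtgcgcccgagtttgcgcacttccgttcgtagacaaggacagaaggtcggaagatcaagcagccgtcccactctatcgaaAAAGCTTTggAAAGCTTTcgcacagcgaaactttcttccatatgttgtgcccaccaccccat

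A pair of further stretches is shown because strong summits of both lists lay at or near them, beside a neighbour of a listed gene, with AAAGCT or its complement AGCTTT in capitals. The first, chr3R:27657068-27657097 on the minus strand, runs across the 3′ end of *Mlc1*, close to the start of *tau*, and its AGCTTT lies 57 bp from the replicate 1 summit and 42 bp from the replicate 2 summit, which are outside the printed bases. The second, chr3L:2122462-2122582 on the minus strand, lies upstream of *sls* in an intron of *zormin* and holds the summits of both lists.
Mlc1 and tau summit site: tcaacgagagagAGCTTTcgaaatgtttgt
zormin intron summit: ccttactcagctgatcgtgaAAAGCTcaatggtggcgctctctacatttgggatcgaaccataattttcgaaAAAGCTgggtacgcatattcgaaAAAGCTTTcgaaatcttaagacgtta

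**Figure D1:**
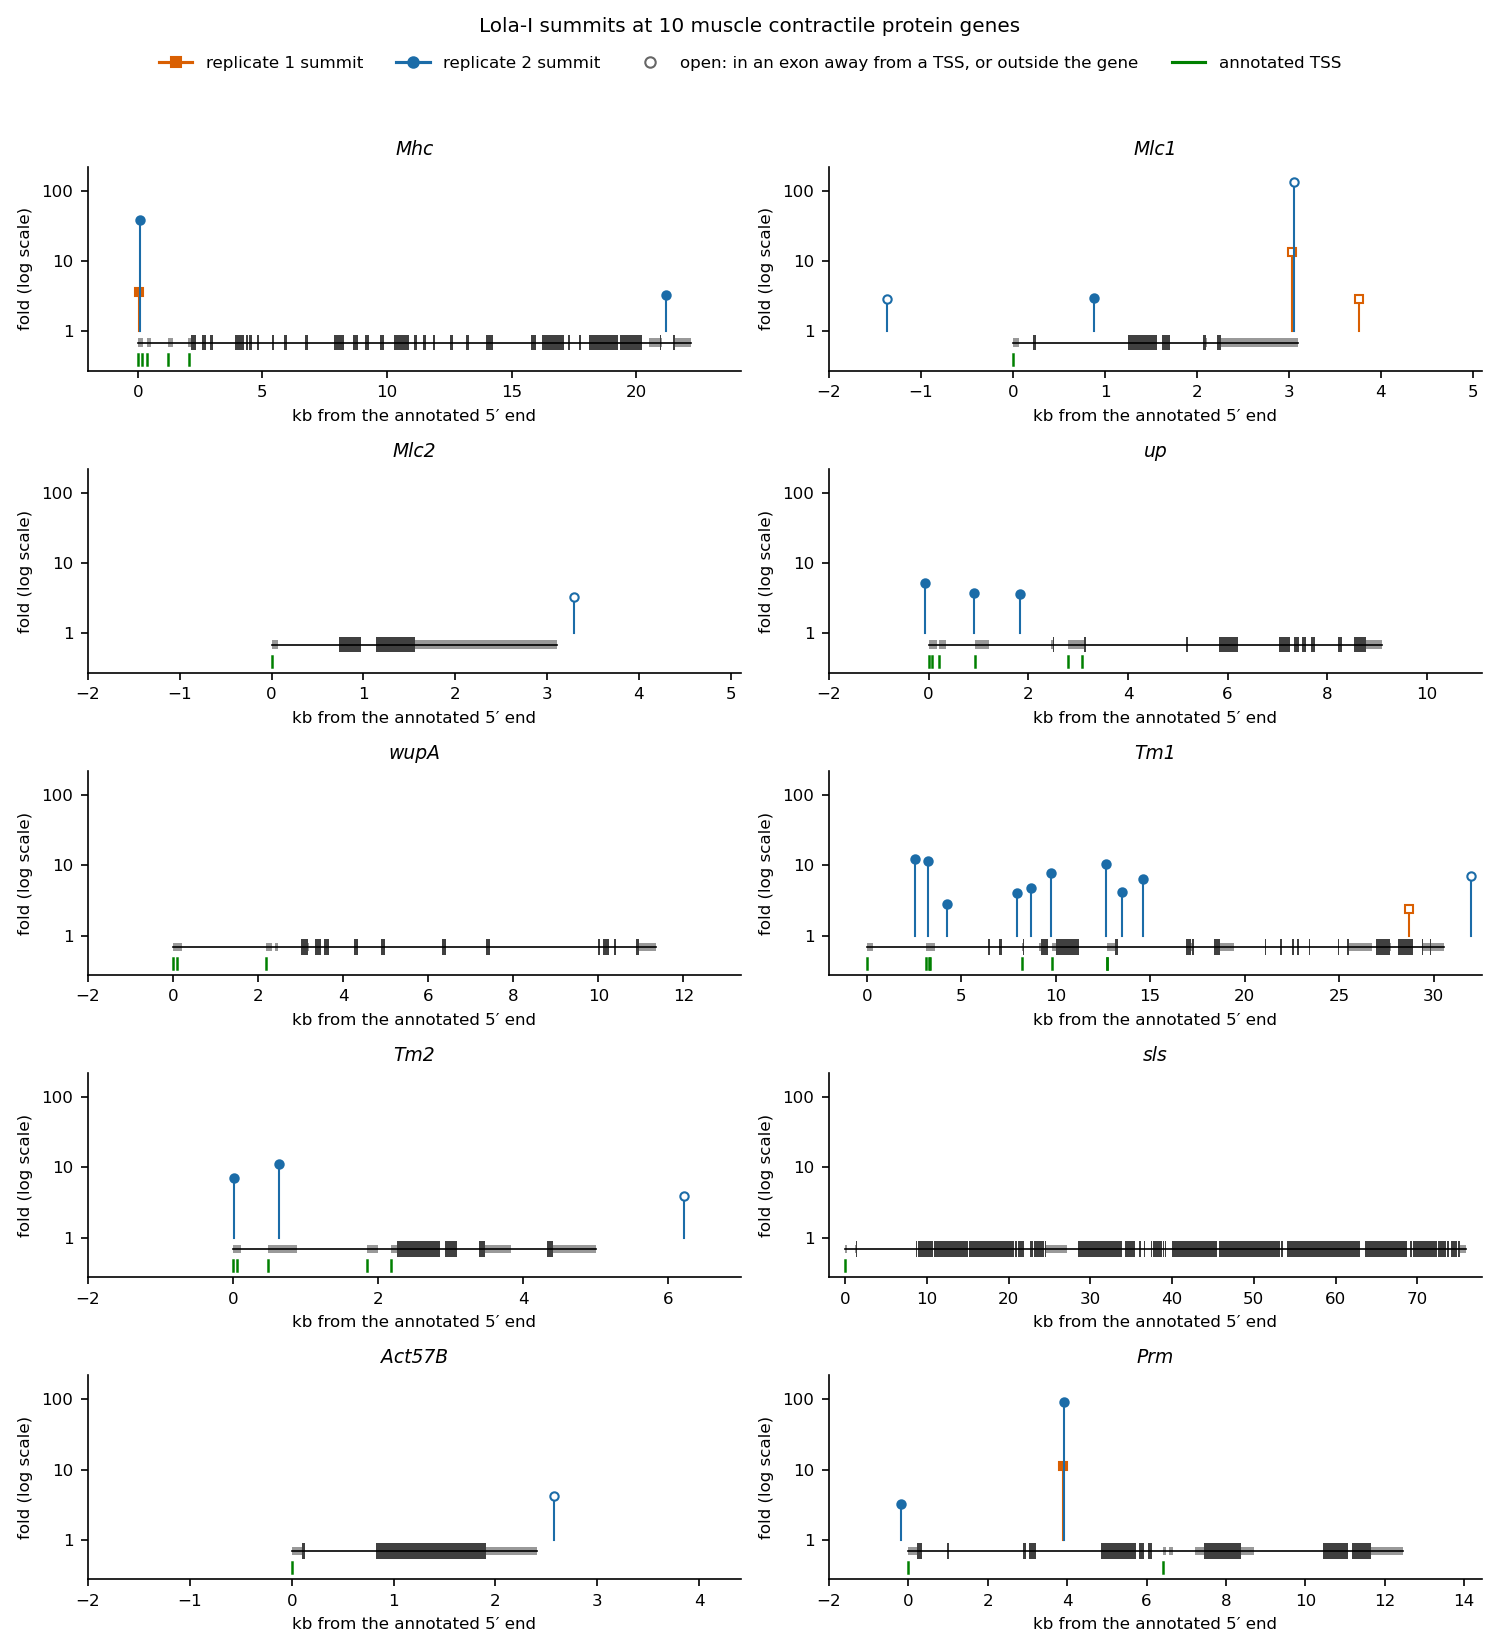
Maps of the 10 genes, each with the distance from its annotated 5′ end in kb on the x axis and the fold enrichment of each summit on a log scale on the y axis. Dark boxes are coding exons, light boxes untranslated exons and green ticks TSSs. Orange squares (replicate 1) and blue circles (replicate 2) are summits, open where they lie outside the gene or in an exon away from a TSS. Both colours stand together at the 5′ end of *Mhc*, in the intron of *Prm* and at the 3′ end of *Mlc1*, *Tm1* carries 9 filled blue summits, and *wupA* and *sls* carry none.

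Among the thick filament genes, *Mhc* (FBgn0264695, chr2L:16766566-16788766, plus strand) encodes the myosin heavy chain, the motor of the thick filament, and has 5 annotated TSSs. In replicate 1 its promoter peak spanned 397 bp, with a fold enrichment of 3.67, a −log10 p-value of 26.9 and rank 932. In replicate 2 the peak spanned 776 bp, with a fold enrichment of 38.8, a −log10 p-value of 661 and rank 872. The peak was thus near the middle of the short list and among the 966 highest-ranked of the long list, and the summits lay 46 bp apart. The summits were 129 bp and 83 bp upstream of the TSS that 14 of the 21 transcripts use, and 39 bp and 85 bp downstream of the most upstream TSS, in an untranslated first exon of 1 transcript. The AAAGCTTT printed above starts 73 bp upstream of the main TSS, 10 bp from the replicate 2 summit and 56 bp from the replicate 1 summit. The other 3 TSSs of *Mhc* had no summit within 200 bp in either list. Replicate 2 held 1 intron summit of *Mhc*, 1013 bp before the 3′ end of the gene, at rank 5109 and a fold enrichment of 3.32, which has no counterpart in replicate 1.

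*Prm* (FBgn0003149, chr3L:8732858-8745310, minus strand) encodes paramyosin, and its internal start gives the shorter miniparamyosin. Transcripts from the upstream TSS carry 879 codons, and those from the internal TSS 307 to 640. The intron summit had a fold enrichment of 11.2, a −log10 p-value of 149.7 and rank 313 in replicate 1, and 90.4, 2141 and rank 343 in replicate 2, with the summits 10 bp apart. Of the promoter and intron summits of the 10 genes it ranked highest in both lists. It lay in intron 4 of the long transcripts, 1654 bp in length, 3904 bp downstream of the upstream TSS and 2499 bp upstream of the internal one (replicate 1 summit). The 2 copies of AAAGCTTT printed above start 39 and 49 bp downstream of the replicate 1 summit. At the upstream TSS itself replicate 2 had a peak of fold enrichment 3.23 and rank 8949 with its summit at -191 bp, and replicate 1 had none there. This summit was the one closest to the 200 bp limit from inside, and the closest outside it was a *Tm1* summit at -224 bp. The internal TSS had no summit within 200 bp.

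The myosin light chains sit on the neck of the myosin head. *Mlc1* (FBgn0002772, chr3R:27657078-27660177, minus strand), the essential light chain, has 1 TSS and had no promoter summit. Replicate 2 held 1 intron summit there, at 885 bp, with a fold enrichment of 3.00 and rank 9055. The strongest peak inside any of the 10 genes lay in the untranslated last exon of *Mlc1*, 64 bp (replicate 1) and 49 bp (replicate 2) before its 3′ end. Its fold enrichment was 13.6 with rank 272 in replicate 1, and 133 with rank 205 in replicate 2. These summits were 146 bp and 131 bp upstream of a TSS of *tau*, which encodes a microtubule-binding protein, so they meet the promoter rule for *tau* and neither rule for *Mlc1*. *tau* was named after its values were seen. *Mlc2* (FBgn0002773, chr3R:30171438-30174551, minus strand), the regulatory light chain, had no summit in its body in either list. The nearest replicate 2 summit lay 3294 bp from its TSS, past its 3′ end and 50 bp upstream of the TSS of *Rsod*, at rank 7926, and the nearest in replicate 1 was 20.5 kb away.

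Among the thin filament genes, the tropomyosins held most of the summits found in replicate 2 alone. *Tm1* (FBgn0003721, chr3R:15278220-15308779, plus strand) makes muscle and cytoskeletal tropomyosins from 8 TSSs. Replicate 2 had 3 promoter and 6 intron summits in it. One promoter summit, at rank 2741 with a fold enrichment of 11.5, served 3 clustered TSSs, from which 11 of the 18 transcripts start. It lay 111 bp upstream of the TSS used by 7 of them. Another, at rank 2663 and a fold enrichment of 7.87, lay 67 bp upstream of the sixth TSS, whose transcripts carry 441 codons. The highest-ranked, at rank 2009 and a fold enrichment of 10.4, lay 74 bp upstream of the seventh TSS, which with the eighth starts transcripts of 250 to 252 codons. This summit was also 71 bp upstream of *CG45218*, a gene on the opposite strand inside *Tm1*. The first and the fifth TSS had no summit within 200 bp.

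Bases upstream of the sixth and the seventh TSS are shown because they hold neither AAAGCT nor GAGAG on either strand. The stretches at *Mhc* and *Prm* hold AAAGCT but no GAGAG. Other *Tm1* summits of replicate 2 did have GAGAG within 100 bp, and some of these had AAAGCT as well. They are chr3R:15287872-15288011 and chr3R:15290804-15290943, both on the plus strand and each ending at the base before the TSS.
Tm1 start 6: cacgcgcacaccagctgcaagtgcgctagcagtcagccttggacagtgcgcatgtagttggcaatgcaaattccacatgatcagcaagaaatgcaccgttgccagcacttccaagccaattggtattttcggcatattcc
Tm1 start 7: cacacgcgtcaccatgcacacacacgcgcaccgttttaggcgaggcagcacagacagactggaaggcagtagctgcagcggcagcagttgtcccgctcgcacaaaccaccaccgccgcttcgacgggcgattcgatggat

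The 6 intron summits of *Tm1* ranged from rank 2453 (fold enrichment 12.5, 588 bp upstream of the second TSS) to rank 9484 (fold enrichment 2.81). None of the 9 summits was overlapped by a replicate 1 peak, against 15.2% of all replicate 2 peaks. Their ranks are ones at which few peaks were overlapped. The share was 9.83% at ranks 1935 to 2901 and 0.103% at ranks 8708 to 9674. The lack of overlap is therefore not read as a trait of *Tm1*. Replicate 1 had 1 peak in *Tm1*, in coding sequence 1861 bp before the 3′ end, at rank 1707 of 1759 and a fold enrichment of 2.42, and replicate 2 had no peak there. The lists therefore shared no peak at *Tm1*.

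*Tm2* (FBgn0004117, chr3R:15310193-15315197, plus strand), the other tropomyosin gene, follows *Tm1* on the same strand and has 5 TSSs whose transcripts all carry 284 codons. Replicate 2 had 2 promoter summits, both in untranslated exons. The first lay 11 bp downstream of the most upstream TSS, with a fold enrichment of 7.15 and rank 4044. The other lay 147 bp downstream of the third TSS, with a fold enrichment of 11.1 and rank 2545. The fourth TSS, which 2 transcripts use, and the fifth had no summit within 200 bp, and replicate 1 had no summit in the gene.

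Troponin T and troponin I gave different pictures. *up* (FBgn0004169, chrX:13593474-13602578, minus strand) encodes troponin T, which ties the troponin complex to tropomyosin, and has 6 TSSs. Its summits were all in replicate 2. One lay 73 bp upstream of the most upstream TSS and 145 bp upstream of the TSS used by 11 of 18 transcripts, with a fold enrichment of 5.18 and rank 5329. Another lay 23 bp upstream of the fourth TSS, with a fold enrichment of 3.73 and rank 8245. An intron summit at rank 8381 had a fold enrichment of 3.66. The nearest replicate 1 summit to a TSS of *up* was 35.9 kb away, at the promoters of *CG46311* and *Tpst*. *wupA* (FBgn0283471, chrX:18105568-18116922, minus strand) encodes troponin I, which blocks the actin-myosin interaction at low calcium, and has 3 TSSs. Neither list had a summit in it or within 10 kb of it. The nearest summits to its TSSs were 38.2 kb away in replicate 1 and 20.8 kb away in replicate 2, the farthest of the 10 genes in both lists.

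*Act57B* (FBgn0000044, chr2R:20944021-20946431, plus strand) encodes a muscle actin and has 1 TSS. It had no summit in its body in either list. The nearest replicate 2 summit was 162 bp past its 3′ end, where rank was 7092 and fold enrichment 4.23, and the nearest in replicate 1 was 7.60 kb upstream of its TSS. The coding sequences of the fly actin genes are nearly identical, and how reads that match several of them were placed is not given in the sources used here.

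*sls* (FBgn0086906, chr3L:2039681-2115611, minus strand) encodes Sallimus and kettin, titin-like proteins of the I-band, and is the longest of the 10 genes at 75.9 kb. Its 13 transcripts share 1 TSS. No summit of either list lay in the gene. The nearest were 6911 bp (replicate 1) and 6922 bp (replicate 2) upstream of its TSS, and these were strong, at rank 275 with a fold enrichment of 12.9 and at rank 221 with 128. They lay in an intron of the neighbouring gene *zormin* (chr3L:2117466-2151700, minus strand), which encodes another protein of the sarcomere with immunoglobulin domains, 29.2 kb downstream of its single TSS. *zormin* was named after its values were seen. Its intron sequence is printed above.

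The 140 bases upstream of *sls* and of *wupA* are shown for comparison, since neither start had a summit. They are chr3L:2115612-2115751 and chrX:18116923-18117062, both on the minus strand, with GAGAG and its complement CTCTC in capitals.
sls 5' end: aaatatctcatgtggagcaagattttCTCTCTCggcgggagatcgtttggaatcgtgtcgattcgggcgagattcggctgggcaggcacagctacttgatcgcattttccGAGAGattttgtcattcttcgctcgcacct
wupA 5' end: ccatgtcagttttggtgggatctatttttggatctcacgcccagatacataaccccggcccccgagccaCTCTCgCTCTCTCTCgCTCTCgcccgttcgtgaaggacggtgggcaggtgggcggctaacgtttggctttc

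**Figure D2:**
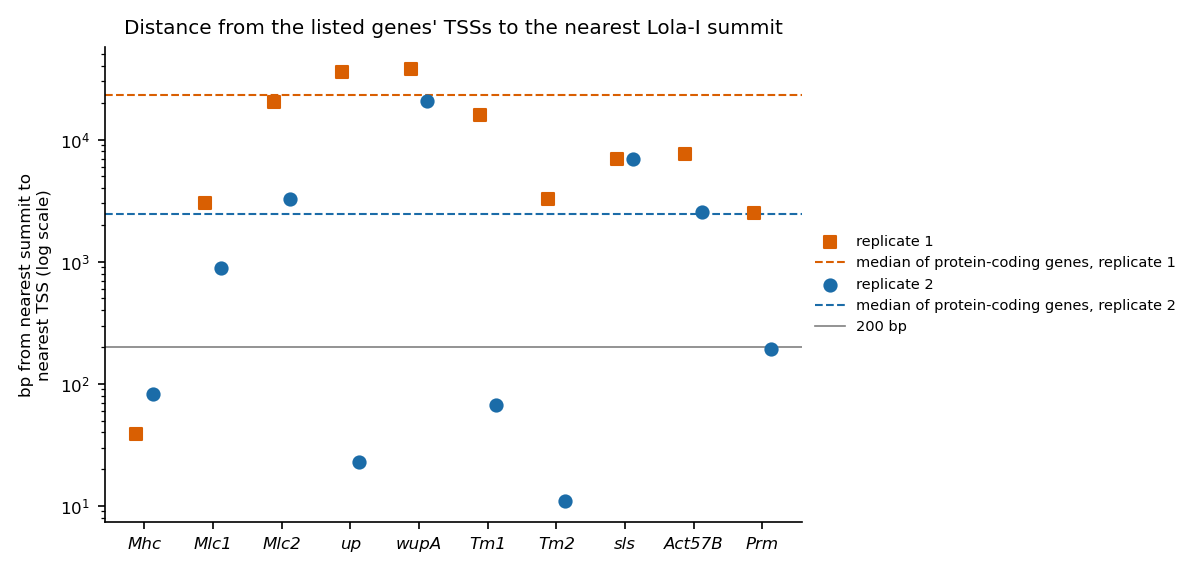
Distance in bp, on a log axis, from the nearest summit to the nearest TSS of each of the 10 genes in replicate 1 (orange squares) and replicate 2 (blue circles). The grey line is the 200 bp limit and dashed lines are the medians of protein-coding genes in each list. *Mhc* is under the limit in both lists, *up*, *Tm1*, *Tm2* and *Prm* in replicate 2 alone, and *wupA* lies above 20 kb in both.

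Counted over the 10 genes, 1 had a promoter summit in replicate 1 (*Mhc*), against 4.56% of all genes. In replicate 2 there were 5 (*Mhc*, *up*, *Tm1*, *Tm2* and *Prm*), against 25.4% of all genes. In both lists there was 1, against 4.32%. These genes have more TSSs than most, with a median of 2.5 against 1 for protein-coding genes, and each TSS is a further chance to be counted. Over protein-coding genes alone the shares were 5.50% in replicate 1 and 30.9% in replicate 2. Of the 6 with at least 2 TSSs, 5 had a promoter summit in replicate 2, against 54.8% of protein-coding genes with at least 2 TSSs, and 1 had one in replicate 1, against 11.1%. The 4 genes with a single TSS (*Mlc1*, *Mlc2*, *sls* and *Act57B*) had none in either list. The share over all genes with a single TSS was not counted, so this is not read as a trait of the 4. By TSS, 15 of the 33 had a replicate 2 summit within 200 bp, against 23.8% of all TSSs, but 9 summits served these 15, and without *Tm1* the count was 9 of 25. In replicate 1 it was 2 of 33, against 3.89%, both at *Mhc* and from 1 summit. With 10 genes a difference of 1 or 2 genes moves these shares widely, and no test was made over them.

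Intron summits were found in 1 gene in replicate 1 (*Prm*), against 2.58% of the 12718 genes with introns. In replicate 2 there were 5 (*Mhc*, *Mlc1*, *up*, *Tm1* and *Prm*), against 12.2%, and in both lists 1, against 2.46%. Here too gene structure differs. The median total intron sequence per gene was 6.84 kb for the 10 genes and 0.253 kb for the 13968 protein-coding genes. Of these, 11690 have introns. Over protein-coding genes alone the shares were 2.69% in replicate 1 and 12.8% in replicate 2. Per length of intron, replicate 2 had 10 summits in 75.8 kb, or 13.2 per 100 kb, against 5.41 per 100 kb over all genes. *Tm1* alone held 6 of them, and without it the rate was 7.16 per 100 kb. In replicate 1 the rates were 1.32, from 1 summit, and 0.706 per 100 kb. The 75.8 kb used for the rates is less than the intron totals behind the median of 6.84 kb add up to. The 2 measures of intron length are therefore not the same.

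**Figure D3:**
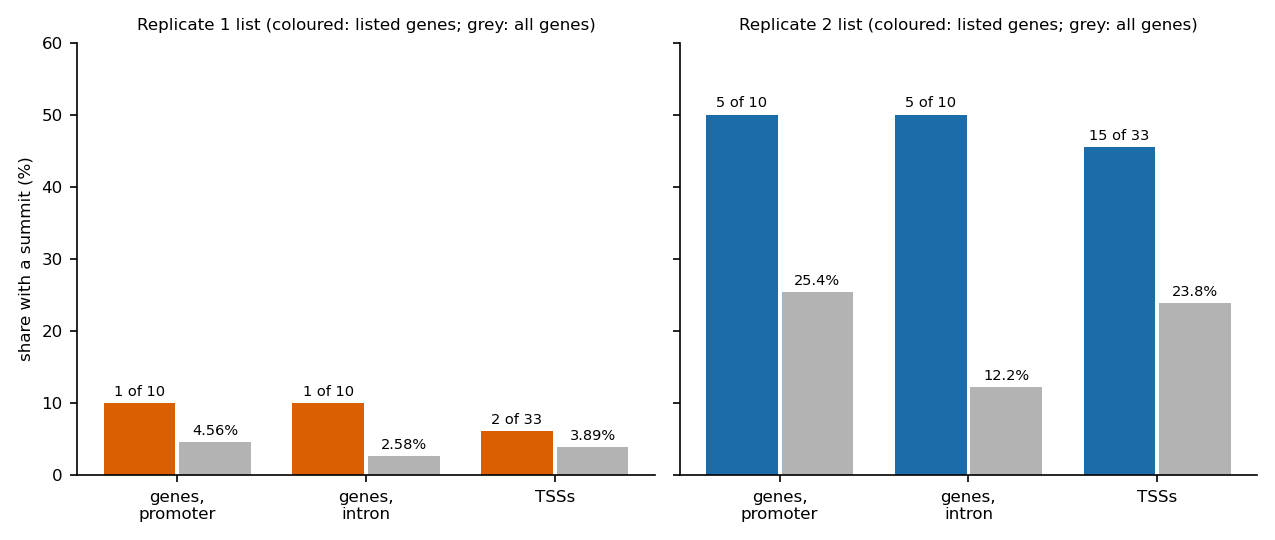
Share in percent of the 10 genes (coloured bars, with counts) and of all genes (grey bars) that had a promoter summit or an intron summit, and the same for TSSs, in each list. In replicate 2 the coloured bars stand at 5 of 10, 5 of 10 and 15 of 33 beside 25.4%, 12.2% and 23.8%. The 10 genes have more TSSs and more intron sequence in total than most genes, which the grey bars do not allow for.

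The 2 promoter or intron sites found in both lists ranked above the rest. The replicate 2 list had 19 promoter and intron summits at the 10 genes, with a median rank of 4775. The *Prm* intron summit and the *Mhc* promoter summit ranked 343 and 872, and the other 17 ranked between 2009 and 9484. In the replicate 2 list as a whole, 92.3% of the peaks ranked up to 966 were overlapped by a replicate 1 peak, 9.83% of those ranked 1935 to 2901, and 2.90% of those ranked 2902 to 3869. The summits of *Tm1* and *Tm2* ranked between 2009 and 9484. When replicate 2 was limited to its 1759 highest-scoring peaks, *Mhc* remained as the 1 gene with a promoter summit and *Prm* as the 1 with an intron summit, as in replicate 1. Over the genome 5.27% of all genes had a promoter summit and 2.88% of genes with introns an intron summit in that shortened list.

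**Figure D4:**
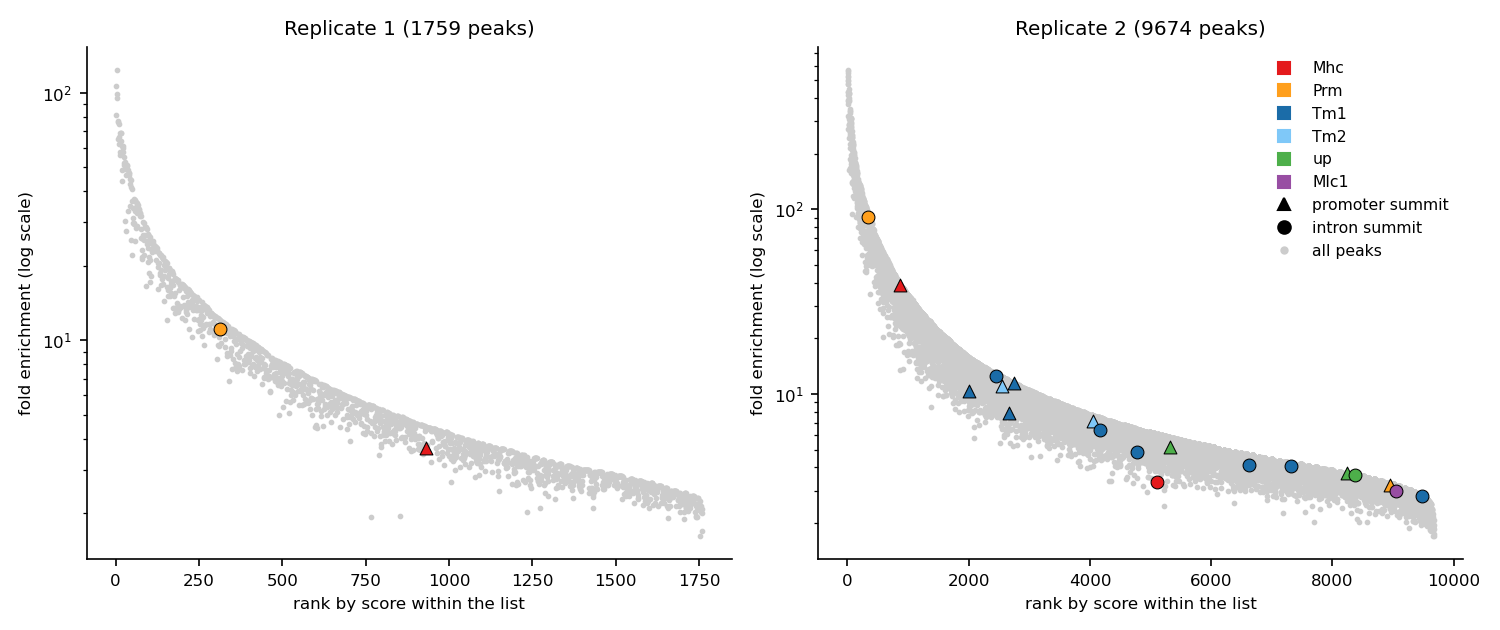
Fold enrichment on a log scale against rank by score for every peak of each list (grey) and for the promoter (triangles) and intron (circles) summits of the 10 genes, coloured by gene. *Prm* and *Mhc* stand at ranks 313 and 932 in replicate 1 and at 343 and 872 in replicate 2, and the other replicate 2 summits stand at rank 2009 and beyond.

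By the sum of differences in score percentile over both lists, the promoter summit most like that of *Mhc* among 789 other genes was one shared by *CG4970* and *Dlg5*, at rank 948 in replicate 1 and 954 in replicate 2. The likeness is of rank alone.

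Sequence within 100 bp of the summits was searched on both strands for 6 motifs, and for AAAGCTTT, which was added after the sequences were seen and contains AAAGCT. The shorter AAAGCT was present at both replicate 1 summits, those of *Mhc* and *Prm*, and at 66.7% of all replicate 1 peaks. It was present at 7 of the 19 replicate 2 summits, against 28.9% of all replicate 2 peaks. AAAGCTTT was present at the *Mhc* and *Prm* summits and at none of the other 17 in replicate 2, against 17.4% of all peaks in replicate 1 and 5.57% in replicate 2. The printed *zormin* summit also holds it, as does the summit 162 bp past the 3′ end of *Act57B*. Of replicate 1 peaks overlapped in replicate 2, 19.9% held AAAGCTTT, and of the 219 not overlapped none did. Of replicate 2 peaks overlapped in replicate 1, 20.7% held it, and of the 8200 not overlapped 2.87% did.

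GAGAG, the core of the GAGA factor site, was present at neither replicate 1 summit, against 44.3% of all replicate 1 peaks, and at 10 of the 19 in replicate 2, against 46.3%. The summits that held it were at *Tm1*, *Tm2*, *up*, *Mlc1* and the intron of *Mhc*. TATAAA was present at 1 of the 19 (*Mhc*) against 12.8%, TCAGT, an initiator core, at 3 against 32.4%, the E-box CAGCTG at 2 against 15.5%, and a core of the Mef2 site, CTA and TAG 4 bases apart, at 1 (*Tm1*) against 2.70%.

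At the promoters themselves, taken from 250 bp upstream to 50 bp into the most used TSS of each gene, AAAGCT was present in 2 of 10 (*Mhc* and *sls*), against 21.4% of 18257 promoters. GAGAG was present in 3 (*wupA*, *Tm1* and *sls*) against 29.9%, and TCAGT in 8 against 51.0%. TATAAA was present in 3 (*Mhc*, *Tm2* and *Act57B*) against 43.7%, CAGCTG in 1 (*up*) against 16.2% and the Mef2 core in 1 (*Act57B*) against 5.21%. AAAGCTTT was present in *Mhc* alone, against 2.19%. AAAGCT and GAGAG were thus both present near the start of *sls*, where neither list had a summit.

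Other muscle genes were counted by the same rules, and the shares of all genes are repeated here for them. These shares do not allow for the number of TSSs or the amount of intron sequence of the genes counted. Promoter summits were found at 4.56% of genes in replicate 1, 25.4% in replicate 2 and 4.32% in both lists. Intron summits were found at 2.58%, 12.2% and 2.46% of genes with introns. Of 26 further genes of the sarcomere and Z-disc, 3 had a promoter summit in replicate 1 and 10 in replicate 2. The 3 were found in both lists. Intron summits were found at 2 in replicate 1, 4 in replicate 2 and 2 in both lists. A gene was counted in both lists if each list had a summit of that class, whether or not the peaks overlapped. *Actn*, the actin cross-linker of the Z-disc, had promoter summits at ranks 1161 and 3455. They lay 75 bp downstream of a TSS in replicate 1 and 41 bp upstream of one in replicate 2. *Mf* (myofilin, a thick filament protein) ranked 1344 and 1561, and *Msp300* (a nesprin that anchors nuclei and organelles) ranked 1248 and 1743. *Actn* and *Msp300* also had intron summits in both lists, at better ranks of 724 and 844, and 647 and 557.

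Of 21 genes of muscle specification, fusion and attachment, 3 had a promoter summit in replicate 1 and 13 in replicate 2. The 3 were again found in both lists. Intron summits were found at 1 in replicate 1 and 11 in replicate 2, and the 1 in both lists was *kirre*, a receptor of myoblast fusion, at ranks 468 and 498. In replicate 2 *kirre*, a very long gene (chrX:2740384-3134532), held 10 intron summits. Their rate per length of intron was not computed. *Mef2*, the activator named above, ranked 802 and 852, with summits 28 and 4 bp downstream of a TSS. The early mesoderm factor *twi* ranked 1492 and 5142, and the LIM-homeobox gene *ap* 1395 and 464. Of 7 excitation-contraction genes 2 had a promoter summit in both lists, the calcium channel gene *Ca-alpha1D* at ranks 312 and 330 and the calcium-dependent kinase gene *CaMKII* at 651 and 597. Counted in replicate 2, 3 of the 7 had a promoter summit and 2 an intron summit, and in replicate 1 none had an intron summit. Of 8 genes of non-muscle actomyosin none had a promoter summit in replicate 1 and 5 had one in replicate 2, and 2 had an intron summit in replicate 2. Of these, *jar*, an unconventional myosin, had one in both lists, at ranks 1542 and 1626. Neither a promoter nor an intron summit in any list was found at 15 of the 26 genes of the sarcomere and Z-disc. The same held for 5 of the 21 genes of specification, fusion and attachment, 3 of the 7 and 3 of the 8. The share of all genes with neither was not counted. These counts are therefore read neither as a shortage of summits nor as a difference between the gene lists. The gene lists are small, no test was made over them, and many of their genes also act outside muscle.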

How the data were processed

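Lola-I ChIP-seq peaks of wild-type embryos were analysed from 2 deposited lists, 1 per replicate. The submitters' processing notes name CASAVA 1.8.2, Bowtie 1.0.0 and the dm6 build. The peak caller, its control and its filters are not given in the sources used here. The deposited score equals 10 times the deposited −log10 p-value with the decimals dropped. The deposited fold enrichment (a ratio), −log10 p-value and −log10 q-value are the authors' values per peak, and their reference is not given in the sources used here.

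Gene models were those of Ensembl 115 (BDGP 6.54), and bases were read from the RefSeq Release 6 genome, whose coordinates are those of dm6. No peak ran past the end of its arm. Transposable elements were not counted as genes. Ranks used the score, with ties ordered by −log10 p-value. Overlap meant at least 1 bp. The code that assigns the promoter and intron classes was run on peaks placed at known positions. This checks the code and not the choice of classes. *Unc-89* was matched as its synonym *Obsc*. Analyses used Python 3.11.15 and matplotlib 3.10.9.

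The members, lists and rules were chosen with earlier results of these data known, so no test was made over them. Named were the 10 genes, genes of the other muscle lists with a promoter summit in both lists, genes sharing a counted summit, and the 2 genes nearest to a member in score percentile. *tau*, *zormin*, *Rsod*, *Tpst*, *CG46311*, *CG17928*, *kirre* and *jar* were named after their values were seen. Alternatives changed the distance, the part of the list used, the overlap rule and the intron rule.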

Additional observations from a re-analysis of the deposited data

How the results depend on the processing

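The number of the 10 genes with a promoter summit in replicate 1 was 1 at distances of 100, 500 and 1000 bp, against 3.39%, 6.04% and 7.74% of all genes. It was 0 with the higher-scoring 50% of the list, since *Mhc* ranks below the middle, against 2.64%. In replicate 2 it was 4, 5 and 6 at these distances, against 21.3%, 31.5% and 36.2% of all genes. With the higher-scoring 50% of that list it was 3, against 14.4%, and with as many peaks as replicate 1 it was 1, against 5.27%. The count for both lists was 1 under each distance and overlap rule, against 3.05% to 7.44% of all genes. It ranged from 1 to 5 when 1 replicate was left out, against 4.56% without replicate 2 and 25.4% without replicate 1. Leaving a replicate out only gives back the count of the other list, so this is no further check. Intron summits in replicate 1 were found in 2 genes when the intron of any transcript counted, against 3.6% of genes with introns. This rule adds the *Tm1* peak in coding sequence of other transcripts. In replicate 2 the same rule gave 6 genes, adding *Tm2*, against 14.8%. With the higher-scoring 50% of that list intron summits were found in 2 genes, against 6.91%. With as many peaks as replicate 1 they were found in 1, against 2.88%. The intron count for both lists ranged from 1 to 5 when 1 replicate was left out, again the counts of the single lists. The shares were 2.58% without replicate 2 and 12.2% without replicate 1. Over protein-coding genes alone the background of replicate 2 was 30.9% for promoters and 12.8% for introns. That alternative and the AAAGCTTT search were chosen after seeing the data. Depth is unknown, so a gene without a peak is not shown to lack binding. No paired analysis was possible because the peak lists of 1 group were used and no groups were compared.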

Other observations

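Both lists held a summit past the 3′ end of *Mhc*, by 2760 bp in replicate 1 and 2753 bp in replicate 2, at the start of the neighbouring gene *CG17928*. It lay 42 bp upstream of the TSS of *CG17928* in replicate 1 and 49 bp upstream in replicate 2, at ranks 531 and 714. In replicate 2 it had a fold enrichment of 41.8, beside 38.8 for the *Mhc* promoter peak in the same list. Like that peak, it held AAAGCTTT within 100 bp of the summit.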
